A study of Mus musculus with 6 samples.

Results

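The cell-cycle entry genes were described here in the nuclear transcriptomes of mouse embryonic stem cells (mESCs) and of cells of the oligodendrocyte progenitor type (mOPCs). They are 10 listed genes: the D-type cyclins Ccnd1, Ccnd2 and Ccnd3, the E-type cyclin Ccne1, the kinases Cdk4 and Cdk6, and the inhibitors Cdkn1a, Cdkn1b, Cdkn2a and Cdkn2b. They were chosen by name out of 35312 genes annotated as coding for a protein or a long non-coding RNA, and all 10 were among the 16707 genes that passed the filter on low counts. Cap analysis of gene expression (CAGE), which captures the capped 5′ ends of RNAs and counts short sequence tags from them, was run on nuclear RNA in 6 libraries. The mESC group held 3 libraries of the line R08, grown without feeder cells with leukemia inhibitory factor and serum. The mOPC group held 3 libraries of oli-neu, a proliferating cell line derived from oligodendrocyte progenitors and grown with N2 supplement, thyroid hormones, basic fibroblast growth factor and platelet-derived growth factor BB. Each group is thus a cell line in its own medium, with no treatment and no further genotype named.

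D-type cyclins bind Cdk4 or Cdk6, and cyclin E binds Cdk2. Both kinds of kinase complex phosphorylate the retinoblastoma protein and its relatives, which releases E2F factors and lets a cell pass from G1 into DNA replication. Cdkn2a and Cdkn2b encode INK4 proteins, which bind Cdk4 and Cdk6 directly. Cdkn2a has a second promoter, ahead of exon 1β, whose transcript encodes the unrelated protein p19Arf, a stabilizer of p53. Cdkn1a (p21), a classical p53 target, and Cdkn1b (p27) belong to the CIP/KIP family and act on complexes of cyclin E and Cdk2 as well as on those of D-type cyclins. Embryonic stem cells are known for a short G1 phase with high cyclin E activity, and oligodendrocyte progenitors for a G1 entry that depends on growth factors and a cell-cycle exit in which Cdkn1b takes part.

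Libraries held between 16657021 and 40928704 tags. Markers of pluripotent cells (6 of 6 higher in mESCs) summed to 2474 to 2592 tags per 1000000 (CPM) in mESC libraries and 22.9 to 24.9 in mOPC libraries, and markers of oligodendrocyte progenitors (5 of 5 higher in mOPCs) to 7.21 to 8.04 and 1399 to 1494. Markers of other cell types also moved with the groups. Those of differentiated oligodendrocytes (5 of 5 higher in mOPCs) summed to 12.1 to 14.6 in mESC and 312 to 343 in mOPC libraries, those of fibroblasts or feeder cells (5 of 7 higher in mOPCs) to 17.9 to 23.4 and 83.8 to 87.2, those of neurons (1 of 4 higher in mOPCs) to at most 10.9 and 81.3 to 102, those of astrocytes (2 of 4) to 46.7 to 50.7 and 82.7 to 94.8, those of endoderm (0 of 4) to 21.9 to 26.8 and 0 to 0.0347, and those of microglia or blood cells (2 of 3) to at most 0.139 in any library. Of the pluripotency and progenitor markers, Nanog, Pou5f1, Tdgf1 and Zfp42 had 3 tags or fewer in every mOPC library. Olig2 did in every mESC library. Other markers at that floor in mOPCs were Col1a2, Col3a1, Dcn, Lum, Thy1, Rbfox3, Snap25, Aldh1l1, Aqp4, Foxa2, Gata4, Gata6, Sox17, Csf1r and Ptprc. In mESCs they were Col3a1, Dcn, Lum, Postn, Mag, Aqp4, Aif1, Csf1r and Ptprc. The share of these other cell types in the results was not tested. Library label in the deposited files, 1 per group, and cell type cannot be told apart, nor can fewer cells that use a gene and less RNA of it per cell. The labels do not say whether the 3 libraries of a group came from separate cultures, so the p-values measure the spread between libraries, which may be technical.

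Levels are given as CPM: tags on the strand of the gene within 500 bp of its annotated 5′ ends, divided by all tags of the library. Differences are log2 values of mOPCs over mESCs from edgeR, whose quasi-likelihood test over all genes gave the Benjamini-Hochberg adjusted p-values (threshold 0.05). This test reports no standard errors. Those given after ± for log2 differences were derived as the absolute difference divided by the square root of the F statistic. The cell types differed in nearly every gene: 91.2% of the genes tested passed the threshold, 43.4% as higher and 47.8% as lower in mOPCs. Of the 10 cell-cycle entry genes, 9 passed, with 4 higher (Ccnd1, Ccnd2, Cdkn1b, Cdkn2a) and 5 lower in mOPCs (Ccnd3, Ccne1, Cdk4, Cdk6, Cdkn1a), which is close to the share over all genes. With a difference of at least 2-fold there were 4 higher genes, against 30.2% of all genes, and 2 lower ones, Ccne1 and Cdkn1a, against 35.2%. The median difference of the 10 genes was -0.05 on the log2 scale, and that of all genes tested was -0.12. The genes lay on both sides of 0, and their order by level differed between the cell types. In mESCs the most abundant were Cdk4 (199 ± 15.0 CPM, SD, n = 3), Ccnd3, Cdkn1a and Ccne1, and in mOPCs Ccnd1 (189 ± 14.8), Cdk4 and Cdkn1b. The rise and the place of Cdkn1b were lost when tags were counted within 100 bp of annotated 5′ ends.

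**Figure D1:**
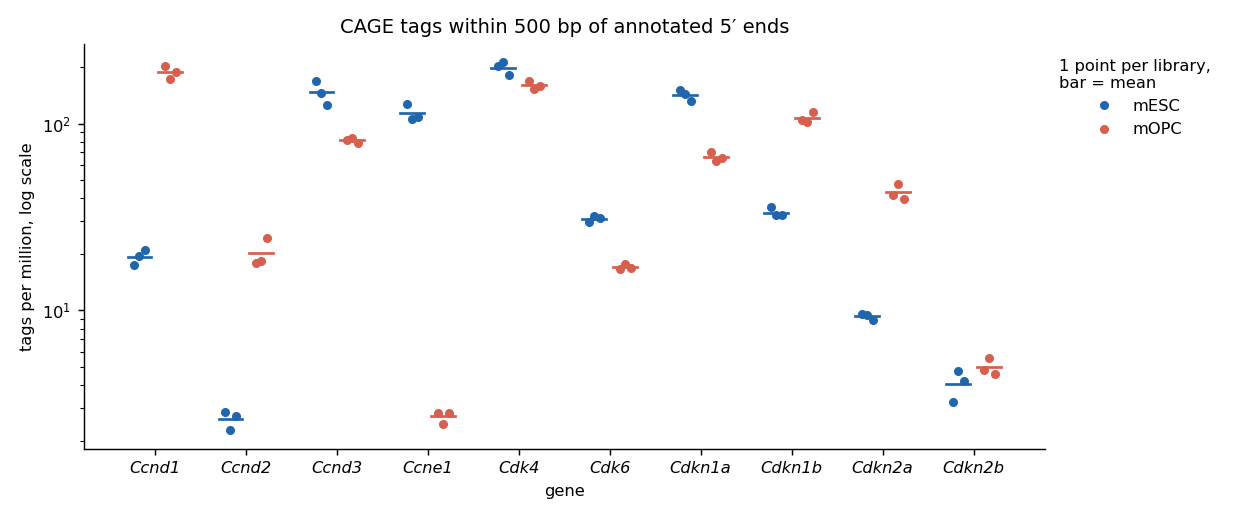
CPM (log scale) within 500 bp of annotated 5′ ends for the 10 genes, with 1 point per library, blue for mESCs and red for mOPCs, and a bar at the mean of each group of 3. The red and blue points are apart for every gene but Cdkn2b, whose lowest mOPC library (4.57) lies below its highest mESC library (4.74).

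**Figure D2:**
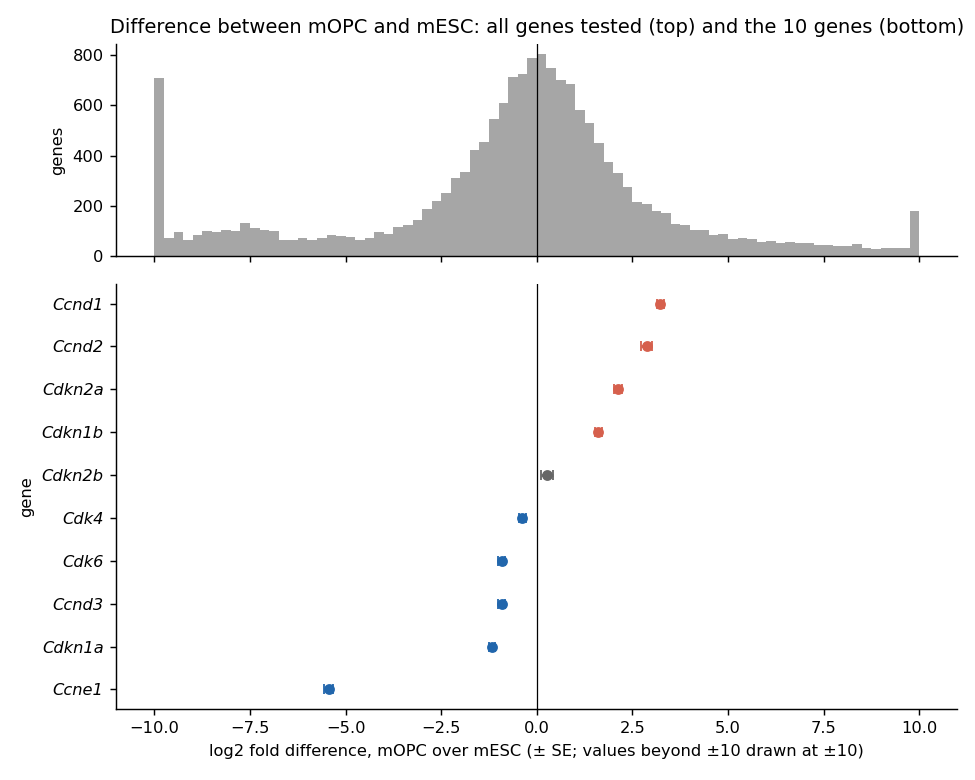
Log2 difference of mOPCs over mESCs for all 16707 genes tested (histogram, top) and for the 10 genes with their standard errors (bottom), red where higher in mOPCs, blue where lower and grey where the threshold was missed. The genes run from Ccne1 at -5.45 to Ccnd1 at 3.23, inside a distribution that is itself wide.

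Among the D-type cyclins, the growth factor-responsive partners of Cdk4 and Cdk6, the prevailing gene differed between the cell types. Ccnd1 (chr7:144929931-144939925, minus strand, mm10) had 17.6, 19.6 and 21.002 CPM in mESCs and 204, 174 and 189 CPM in mOPCs. Every mOPC library was above every mESC library, and the log2 difference was 3.23 ± 0.09 (edgeR adjusted p = 9.36e-54), a change larger in size than that of 70.5% of all genes tested. Ccnd2 (chr6:127125162-127152193, minus strand), a close relative with a narrower range of tissues, had 2.85, 2.28 and 2.71 CPM in mESCs and 18.0, 18.3 and 24.6 in mOPCs. The groups were apart here too, with a log2 difference of 2.87 ± 0.15 (adjusted p = 2.72e-31, edgeR). Ccnd3 (chr17:47505051-47599691, plus strand), the third D-type cyclin, went the other way, with 169, 146 and 125 CPM in mESCs and 81.6, 84.1 and 78.5 in mOPCs. Its log2 difference was -0.92 ± 0.09 (edgeR adjusted p = 6.41e-17). Ccnd3 made up 86.7% ± 2.60 (SD, n = 3) of the summed D-type cyclin tags in mESCs and 28.1% ± 2.04 in mOPCs, whereas Ccnd1 made up 11.7% ± 2.44 and 65.0% ± 2.10. The sum of all 3 was 169 ± 20.6 CPM in mESCs and 291 ± 13.5 CPM in mOPCs.

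Tags of Ccnd1 and Ccnd2 came almost wholly from a single annotated promoter in both cell types. Promoters were compared as windows, each the union of overlapping 500 bp flanks of the 5′ ends of a gene, in a fit over all 21820 windows that passed the filter. Of these 89.5% passed the threshold, 41.9% as higher and 47.6% as lower in mOPCs. The median over all windows was -0.15 with TMM scaling and 0.06 with scaling by library totals, so the sign of a small difference of a window can depend on the scaling. For Ccnd1 the promoter window held 99.2% ± 0.50 of the window tags in mESCs and 98.9% ± 0.15 in mOPCs, and the position with the most tags, 93 bp downstream of the first annotated 5′ end, held 30.9% ± 1.94 and 41.3% ± 2.76. In Ccnd2 the main window held 95.9% ± 1.46 and 99.7% ± 0.28. A window 1133 bp upstream held 6, 1 and 2 Ccnd2 tags in the mESC libraries and 0 in every mOPC library, so that its pooled level was at least 3.77-fold higher in mESCs (bound from 3 tags over the pooled mOPC libraries, counting error only). None of these 9 tags lay within 100 bp of the annotated 5′ end.

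Ccnd3 has annotated 5′ ends 88385 bp apart, and the promoters at both places moved in opposite directions. They are shown because the sum over the gene combines both. The sequences are those of RefSeq (GRCm38.p6), from 100 bases before to 30 bases after the RefSeq start, 5′ to 3′, and capitals mark recorded tag positions that held at least 5% of the tags of the window in mESCs or mOPCs.
Ccnd3 upstream promoter, chr17:47504951-47505080, plus strand: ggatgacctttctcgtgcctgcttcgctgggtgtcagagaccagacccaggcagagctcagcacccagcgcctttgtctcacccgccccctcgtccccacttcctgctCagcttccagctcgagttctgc
Ccnd3 downstream promoter, chr17:47593367-47593496, plus strand: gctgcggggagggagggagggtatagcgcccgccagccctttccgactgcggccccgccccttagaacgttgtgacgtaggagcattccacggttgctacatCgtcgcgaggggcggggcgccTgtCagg
The upstream promoter had 5.31, 7.20 and 6.67 CPM in mESCs and 22.9, 22.5 and 18.5 in mOPCs, a log2 difference of 1.55 (edgeR adjusted p = 7.61e-25 over all windows). At the downstream promoter the values were 163, 137 and 118 CPM in mESCs and 58.1, 61.1 and 59.6 in mOPCs, a difference of -1.44 (adjusted p = 1.13e-26, edgeR). The downstream promoter, the stronger one in both cell types, gave 94.7% ± 1.40 of the Ccnd3 window tags in mESCs and 73.2% ± 2.38 in mOPCs.

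Ccne1 (chr7:38097984-38107534, minus strand), which encodes cyclin E1, the activator of Cdk2 at the start of DNA replication, had the largest difference among the 10 genes. The mESC libraries had 127, 105 and 108 CPM and the mOPC libraries 2.83, 2.46 and 2.83. The groups were far apart, with a log2 difference of -5.45 ± 0.12 (edgeR adjusted p = 5.08e-65) and a ratio of means of 41.8. A change of this size exceeded that of 80.9% of all genes tested. The promoter is shown with its recorded start positions of at least 5% in capitals.
Ccne1, chr7:38107461-38107590, minus strand, GRCm38.p6: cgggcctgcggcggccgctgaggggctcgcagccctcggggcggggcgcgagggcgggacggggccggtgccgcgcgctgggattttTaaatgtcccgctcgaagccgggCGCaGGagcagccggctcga
The few Ccne1 tags of mOPCs started at the same main position, 56 bp downstream of the first annotated 5′ end, which held 31.99% ± 1.07 of the window tags in mESCs and 21.6% ± 0.91 in mOPCs. Within 250 bases upstream of the start this promoter held 4 GC boxes (GGGCGG, either strand), a motif found in 32.7% of 32817 RefSeq promoters of that length. No exact E2F motif (TTTCCCGC, TTTGGCGC or TTTCGCGC) was found in that window.

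Of the partner kinases, Cdk4 had the smallest difference among the 9 genes past the threshold, and Cdk6 differed about as much as Ccnd3. Cdk4 (chr10:127063534-127067920, plus strand) had 202, 212 and 183 CPM in mESCs and 170, 153 and 159 in mOPCs. The groups did not overlap, and the log2 difference of -0.38 ± 0.08 (edgeR adjusted p = 1.80e-05) was larger than that of only 13.9% of all genes. Its main window held over 99% of the Cdk4 tags in each library, and the main start position, 102 bp downstream of the first annotated 5′ end, held 17.5% ± 1.47 in mESCs and 20.6% ± 0.43 in mOPCs. The Cdk4 promoter is shown for its E-boxes (CACGTG, a palindrome), in capitals, of which 2 fall into the stretch shown and 4 into the 250 bases upstream of the start. The motif was present in 6.02% of all RefSeq promoters.
Cdk4, chr10:127063435-127063564, plus strand, GRCm38.p6: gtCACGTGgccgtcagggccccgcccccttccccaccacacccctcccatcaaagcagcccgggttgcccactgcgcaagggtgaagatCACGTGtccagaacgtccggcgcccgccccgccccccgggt

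Cdk6 (chr5:3341485-3531008, plus strand), the second kinase of D-type cyclins, was lower in mOPCs at its upstream promoter, while its downstream promoter missed the threshold. Over the gene, mESCs had 29.7, 31.8 and 31.3 CPM and mOPCs 16.6, 17.8 and 16.8, a log2 difference of -0.92 ± 0.10 (edgeR adjusted p = 8.16e-15). The window of the most upstream 5′ end (3341485, transcript Cdk6-205) had 533, 241 and 273 tags in the mESC libraries, or 14.1, 14.5 and 14.8 CPM. The same window had 0, 0 and 1 tag in the mOPC libraries. The pooled level was 1316-fold higher in mESCs, with an exact 95% interval of 236 to 52012 that covers counting error only. The window 2247 bp downstream, where 4 further Cdk6 transcripts start, had 15.6, 17.4 and 16.4 CPM in mESCs and 16.6, 17.8 and 16.8 in mOPCs. These ranges overlap, and the difference of -0.16 missed the threshold (edgeR adjusted p = 0.164) and became 0.06 with scaling by library totals. Within Cdk6 the downstream window therefore took 53.3% ± 1.11 of the window tags in mESCs and 99.95% ± 0.08 in mOPCs. Its main start, 156 bp downstream of the first 5′ end there, held 10.8% ± 2.27 in mESCs and 6.71% ± 1.33 in mOPCs, and the central 80% of its tags spread over 373 and 384 bp.
Cdk6 downstream promoter, chr5:3343793-3343922, plus strand, GRCm38.p6, start positions of at least 5% in capitals: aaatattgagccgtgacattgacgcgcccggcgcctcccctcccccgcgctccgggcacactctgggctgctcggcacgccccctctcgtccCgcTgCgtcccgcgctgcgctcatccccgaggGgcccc
Cdk4 and Cdk6 together had 230 ± 15.1 CPM in mESCs and 178 ± 8.06 CPM in mOPCs.

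The Cdkn2a locus (chr4:89274471-89294653, minus strand) has separate promoters for its proteins, and these were counted separately. The promoter of exon 1β, which gives p19Arf, lies 12461 bp upstream of the promoter of exon 1α, which gives the INK4 protein p16. Both are shown, and capitals in the first mark an E2F motif (TTTCCCGC), which starts 99 bases before the RefSeq start and was present in 0.893% of all RefSeq promoters. None of the motifs searched was found in the 250 bases before the RefSeq start of exon 1α. The search ended at that start. The last bases shown, which lie after it, hold a GC box (GGGCGG) and, on the other strand, CCAAT, also among the motifs searched. Exon 1α tags of mESCs had their median 46 bp downstream of the annotated 5′ end.
Cdkn2a exon 1β promoter, chr4:89294590-89294719, minus strand, GRCm38.p6: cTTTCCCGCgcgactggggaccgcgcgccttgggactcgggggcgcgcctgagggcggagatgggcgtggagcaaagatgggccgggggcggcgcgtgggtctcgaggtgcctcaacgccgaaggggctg
Cdkn2a exon 1α promoter, chr4:89282163-89282292, minus strand, GRCm38.p6: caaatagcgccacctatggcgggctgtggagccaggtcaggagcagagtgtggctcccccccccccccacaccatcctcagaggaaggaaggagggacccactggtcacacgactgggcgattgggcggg
At exon 1β the mESC libraries had 314, 136 and 152 tags, or 8.29, 8.16 and 8.25 CPM, and the mOPC libraries 901, 1346 and 1613 tags, or 41.1, 46.7 and 39.4 CPM. All mOPC libraries were above all mESC libraries, with a log2 difference of 2.15 (edgeR adjusted p = 1.72e-43). At exon 1α the mESC libraries had 47, 22 and 12 tags (1.24, 1.32 and 0.651 CPM) and the mOPC libraries 11, 17 and 9 tags (0.502, 0.589 and 0.220 CPM). These counts are small, and the difference was -1.63 (adjusted p = 2.68e-06, edgeR), opposite in sign to that of exon 1β. The remaining exon 1α tags of mOPCs were mostly not at the annotated start: within 100 bp of it lay 80 of 81 tags in mESCs but 11 of 37 in mOPCs. Counted within 100 bp, the mOPC libraries had 4, 3 and 4 tags, and the difference was -3.28 ± 0.41 (edgeR adjusted p = 1.46e-12). Exon 1β gave 88.6% ± 3.58 of the Cdkn2a window tags in mESCs and 99.0% ± 0.39 in mOPCs. The gene-level rise of Cdkn2a, from 9.53, 9.49 and 8.90 CPM in mESCs to 41.6, 47.3 and 39.6 in mOPCs (log2 difference 2.13 ± 0.10, edgeR adjusted p = 1.62e-35), came almost wholly from exon 1β.

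Starts at exon 1β lay within a compact stretch in both cell types. In mESCs the central 80% of the tags covered 73 bp and the main position, 71 bp downstream of the annotated 5′ end, held 16.6%. In mOPCs the central 80% covered 52 bp and the main position, at 90 bp, held 16.3%. On the opposite strand of the same window the mESC libraries held 79, 36 and 47 tags, and those of mOPCs 1539, 2025 and 2841. In each mOPC library these antisense tags outnumbered the sense tags, and in each mESC library they did not. Their main position in mOPCs lay 229 bp upstream of the exon 1β 5′ end.

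**Figure D3:**
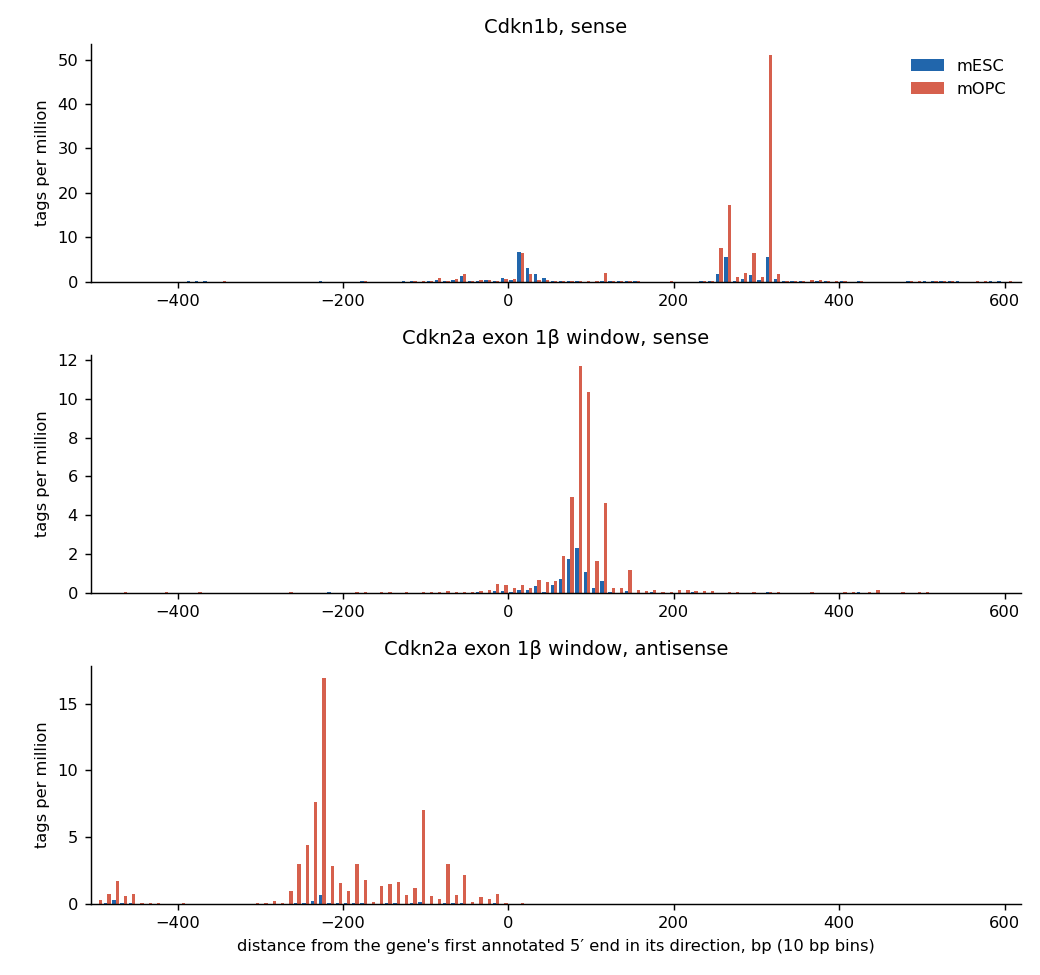
Mean CPM in 10 bp bins by distance from the first annotated 5′ end, for Cdkn1b (top), for the sense strand of the Cdkn2a exon 1β window (middle) and for its antisense strand (bottom), blue for mESCs and red for mOPCs (3 libraries each). Cdkn1b tags of mOPCs pile up 318 bp downstream, and the antisense tags near Cdkn2a lie upstream of the sense starts and are higher in mOPCs (69.9 CPM over the window) than in mESCs (2.27).

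Cdkn2b (chr4:89306299-89311039, minus strand), which encodes the INK4 protein p15, was the only one of the 10 genes that missed the threshold. It had 3.22, 4.74 and 4.18 CPM in mESCs and 4.79, 5.58 and 4.57 in mOPCs. The groups overlapped, and the log2 difference was 0.28 ± 0.16 (edgeR adjusted p = 0.0926). The approximate 95% interval built from this derived standard error was -0.04 to 0.59. With scaling by library totals it was 0.34 and passed (edgeR adjusted p = 0.0388). Starts of Cdkn2b were alike in place: the position 46 bp downstream of the annotated 5′ end held 34.5% ± 4.33 (mESCs) and 31.4% ± 3.47 (mOPCs) of its tags. The promoter is shown with the cyclic AMP response element (CRE, TGACGTCA) in capitals, which starts 46 bases before the RefSeq start and was found in 1.55% of all RefSeq promoters.
Cdkn2b, chr4:89311003-89311132, minus strand, GRCm38.p6: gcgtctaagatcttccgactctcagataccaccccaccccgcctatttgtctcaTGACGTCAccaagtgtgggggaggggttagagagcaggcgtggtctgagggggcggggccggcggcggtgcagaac

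Counted within 500 bp of annotated 5′ ends, the CIP/KIP genes moved in opposite directions. Cdkn1a (chr17:29090976-29100727, plus strand) had 151, 144 and 132 CPM in mESCs and 70.5, 62.9 and 65.0 in mOPCs, a log2 difference of -1.18 ± 0.08 (edgeR adjusted p = 2.31e-24). Cdkn1b (chr6:134920401-134925513, plus strand) had 35.7, 32.2 and 32.3 CPM in mESCs and 104, 102 and 115 in mOPCs, a difference of 1.61 ± 0.09 (adjusted p = 1.08e-31, edgeR). For both genes the groups were apart. Their sum was 176 ± 11.2 CPM in mESCs and 173 ± 7.67 CPM in mOPCs, within the spread of the libraries, while the share of Cdkn1b in it was 19.0% ± 0.69 and 61.8% ± 2.13. Within 100 bp the rise of Cdkn1b was lost and its sign turned (-0.12, edgeR adjusted p = 0.302). The sum was then 158 ± 10.7 CPM in mESCs and 82.4 ± 4.05 CPM in mOPCs, and the share of Cdkn1b 10.4% ± 0.84 and 19.98% ± 0.61.

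Cdkn1a tags came from a pair of promoters 2793 bp apart, which are printed below. In the upstream one, capitals mark both matches to a p53 half-site, the 10-base p53 consensus, which was searched for after the sequences had been seen and occurs in 7.12% of all RefSeq promoters. In the downstream one, they mark start positions of at least 5%.
Cdkn1a upstream promoter, chr17:29090879-29091008, plus strand, GRCm38.p6: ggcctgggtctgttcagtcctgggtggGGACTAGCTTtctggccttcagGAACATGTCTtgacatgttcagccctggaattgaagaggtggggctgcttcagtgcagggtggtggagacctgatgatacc
Cdkn1a downstream promoter, chr17:29093669-29093798, plus strand, GRCm38.p6: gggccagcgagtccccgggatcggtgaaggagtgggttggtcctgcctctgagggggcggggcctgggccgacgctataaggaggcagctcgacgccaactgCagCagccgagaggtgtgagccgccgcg
For mESCs the upstream promoter had 659, 275 and 263 tags, or 17.4, 16.5 and 14.3 CPM, and for mOPCs 5, 3 and 9 tags, or 0.228, 0.104 and 0.220 CPM. Its level in mOPCs was close to 0, with a log2 difference of -6.62 (edgeR adjusted p = 6.88e-66). The downstream promoter, the main one in both cell types, had 134, 127 and 118 CPM in mESCs and 70.2, 62.8 and 64.7 in mOPCs, a difference of -1.15 (adjusted p = 1.97e-26, edgeR). It gave 88.7% ± 0.37 of the Cdkn1a window tags in mESCs and 99.6% ± 0.07 in mOPCs. Its starts were the sharpest of the 10 genes, with the positions 2 and 5 bp downstream of the annotated 5′ end holding between 93.6% and 95.1% of the tags in each library.

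The rise of Cdkn1b depended on where in the gene tags were counted. Within 100 bp of an annotated 5′ end, mESC libraries had 18.6, 15.0 and 16.1 CPM and mOPC libraries 16.7, 16.1 and 16.5. These ranges overlap, and the fitted difference was -0.12 ± 0.11 (edgeR adjusted p = 0.302). The additional mOPC tags lay further into exon 1. A single position, 318 bp downstream of the first annotated 5′ end (134920719, in the 5′ untranslated part of exon 1 and 201 bases before the start codon), had 5.25, 4.74 and 5.48 CPM in mESCs and 47.4, 42.8 and 55.0 in mOPCs, or 15.5% ± 1.29 and 45.1% ± 2.92 of the Cdkn1b tags. It is shown with the recorded base in capitals.
Cdkn1b around the main start, chr6:134920704-134920733, plus strand, GRCm38: tgcgcctctcttcccCagacctgcgcgcta
All other Cdkn1b positions together had 30.4, 27.5 and 26.9 CPM in mESCs and 56.6, 59.1 and 60.0 in mOPCs, so that the groups remained apart without it. Leaving out the position with the most tags of every gene, a setting chosen after seeing the data, the Cdkn1b difference was 0.90 (edgeR adjusted p = 2.75e-16). The second position, 265 bp downstream, held 9.13% of the pooled tags in mESCs and 9.08% in mOPCs. Whether the RNAs from these positions are full-length Cdkn1b transcripts was not tested. For comparison, the promoter at the annotated 5′ end follows, with start positions of at least 5% in capitals.
Cdkn1b, chr6:134920301-134920430, plus strand, GRCm38.p6: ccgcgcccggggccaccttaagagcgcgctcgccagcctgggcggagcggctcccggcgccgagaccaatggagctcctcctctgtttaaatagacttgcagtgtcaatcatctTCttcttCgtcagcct

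Promoter use was compared over the 8 genes with more than 1 window and at least 20 window tags in every library, as the share of tags in the window with the most tags. The libraries of the cell types did not overlap in 5 of them: Cdk6 (a difference of 46.7 percentage points), Ccnd3 (-21.5), Cdkn1a (10.9), Cdkn2a (10.4) and Ccnd2 (3.79). For Ccnd1, Ccne1 and Cdk4 the shares overlapped. Shares were compared for the listed genes only, so the portion of all genes whose libraries are apart is not known. Since 89.5% of all promoter windows tested passed the threshold, 5 of 8 is not read as particular to these genes. With 100 bp windows 4 genes were apart, without Ccnd2, whose difference turned to -0.064 points, and with 1000 bp windows 6, with Ccnd1 (-0.82 points) added. With 3 libraries against 3, the two-sided exact permutation test cannot give a p below 0.1, which is what it gave for all 5, with an adjusted value of 0.16 over the 8 genes. In Cdk6, Cdkn1a and Ccnd3 the upstream promoter and the downstream one moved by different amounts or in different directions.

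**Figure D4:**
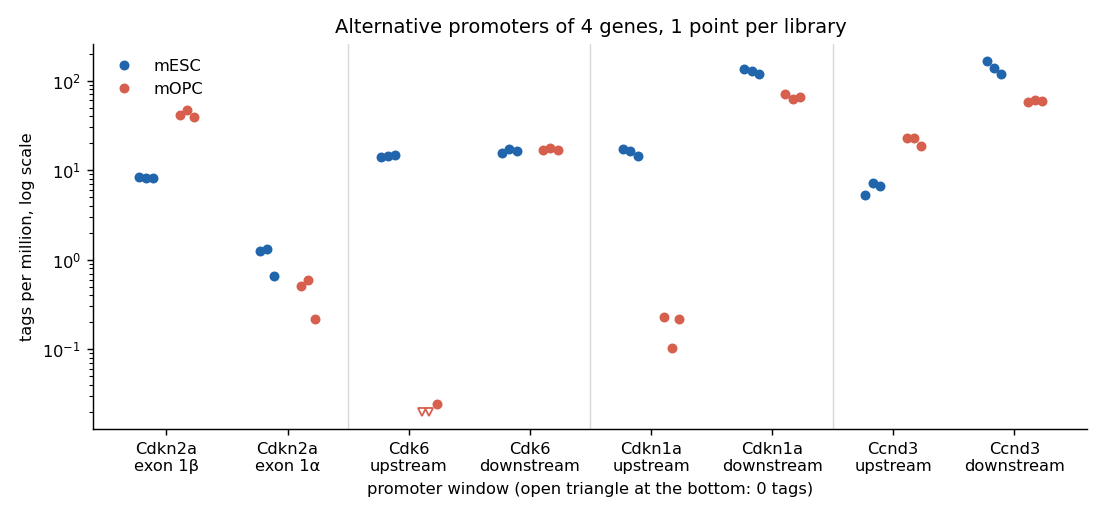
CPM (log scale) at 2 promoter windows each of Cdkn2a, Cdk6, Cdkn1a and Ccnd3, with 1 point per library, blue for mESCs and red for mOPCs, and open triangles at the bottom for libraries with 0 tags. The upstream windows of Cdk6 and Cdkn1a are at or below 0.228 in mOPCs, Ccnd3 changes direction between its windows, and exon 1α of Cdkn2a is below exon 1β in each library.

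Recorded start positions need a remark on the base they name. At RefSeq promoters whose strongest position held at least 100 tags in a library (2192 to 2958 promoters per strand and library, 1 library of each cell type), the recorded base was C or T in 92.2% to 93.1% and the base after it A or G in 94.9% to 96.7%, on either strand. Transcription usually starts at a purine that follows a pyrimidine, so distances and capitals given here may lie 1 base upstream of the start. Window sums are not touched by this.

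In lists chosen by function, every gene tested of the S and M phase cyclins and kinases, of DNA replication and of mitosis was lower in mOPCs. Of the S and M phase cyclins and their kinases, all 8 tested were lower (median log2 difference -3.44), among them Ccnb1 (12.9 ± 0.72 CPM in mESCs and 0.845 ± 0.31 in mOPCs), the mitotic cyclin B1, and Ccne2 (128 ± 9.77 and 9.85 ± 0.40), the second E-type cyclin. All 17 genes of DNA replication were lower (median -2.59), with Rrm2 (88.9 ± 7.46 and 6.50 ± 0.36), a ribonucleotide reductase subunit, and Mcm5 (170.0 ± 11.2 and 13.96 ± 1.14), a subunit of the replicative helicase, the most changed. All 11 mitosis genes were lower as well (median -2.76), led by Cdc20 (264 ± 28.8 and 16.4 ± 0.62), an activator of the anaphase-promoting complex, and the kinase Plk1 (88.3 ± 8.51 and 7.14 ± 1.03). The share of all genes called lower, 47.8%, is the background for these counts. Ccne1 thus moved with the replication and mitosis genes, and Ccnd1 and Ccnd2 against them.

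Lists of kinase regulators, and of the pocket proteins and E2F factors downstream of the kinases, were less uniform in direction. The shares of all genes called higher, 43.4%, and lower, 47.8%, are the background for these counts too. Among genes of CDK activation 7 of 8 were lower and 1 higher (Cdc25b), with Wee1 (29.0 ± 1.45 and 4.56 ± 0.29), the kinase that holds Cdk1 inactive, and Cdk7 (104 ± 2.69 and 45.7 ± 0.64) the most changed. Of the 3 other CDK inhibitors, Cdkn2c (p18), an INK4 gene, was higher in mOPCs (4.01 ± 0.64 and 15.4 ± 1.46, log2 difference 1.91), while the CIP/KIP gene Cdkn1c (p57) was lower by more (9.41 ± 1.06 and 0.130 ± 0.12, log2 difference -6.06), and the INK4 gene Cdkn2d was lower too (9.30 ± 0.34 and 5.84 ± 0.67, -0.74). Of the 13 pocket proteins and E2F factors, 10 were lower, 1 higher (E2f6) and 2 missed the threshold (Rb1 and Rbl2), with Tfdp2 (299 ± 15.5 and 67.1 ± 7.06), a partner of E2F proteins, and the repressive factor E2f8 (67.6 ± 3.13 and 15.6 ± 1.25) the most changed. In the list for turnover of cyclins and Cdkn1b, 4 of 7 genes were higher and 3 lower (median 0.34). Fbxo4 (1.09 ± 0.37 and 36.0 ± 2.39), an F-box protein linked to cyclin D1 turnover, was higher in mOPCs, and Cks1b (127 ± 4.45 and 15.8 ± 2.85), the cofactor of Skp2 in degradation of the Cdkn1b protein, was lower.

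The p53 list was mostly lower in mOPCs, as was Cdkn1a, while Trp53 itself was higher (100.4 ± 2.94 and 187 ± 11.9 CPM). Of the 17 genes in the list 14 were lower, 2 higher (Trp53 and Sesn1) and 1 missed the threshold, with a median of -1.93. The p53 target Sesn1 had 24.5 ± 0.57 CPM in mESCs and 120 ± 13.8 in mOPCs (log2 difference 2.23). Over all genes tested, 47.8% were lower and 43.4% higher. Perp, a membrane protein gene induced by p53, and Pmaip1, which encodes the pro-apoptotic protein Noxa, had 32.3 ± 3.78 and 32.3 ± 2.13 CPM in mESCs and 0 tags in every mOPC library, so they were at least 1025-fold and 967-fold higher in mESCs (bounds from 3 tags over the pooled libraries). Of 8 regulators of the Cdkn2a locus, 5 were higher and 3 lower (43.4% and 47.8% over all genes). Known repressors of the locus were found on both sides. The repressor Tbx3 had 150 ± 6.06 CPM in mESCs and 0 tags in mOPCs (at least 4561-fold), and the Polycomb gene Cbx7 had 202 ± 2.47 and 64.9 ± 3.27. Among repressors that were higher in mOPCs, the Polycomb gene Bmi1 had 10.8 ± 0.33 and 52.8 ± 3.01 CPM (log2 difference 2.22), and Tbx2 had 1 tag in all mESC libraries together and 70, 83 and 115 tags in the mOPC libraries. Ets1, listed as an activator of the locus, had 1.60 ± 0.35 and 12.2 ± 0.58 CPM. Whether any of these regulators acts on exon 1α or exon 1β in these cells was not tested.

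**Figure D5:**
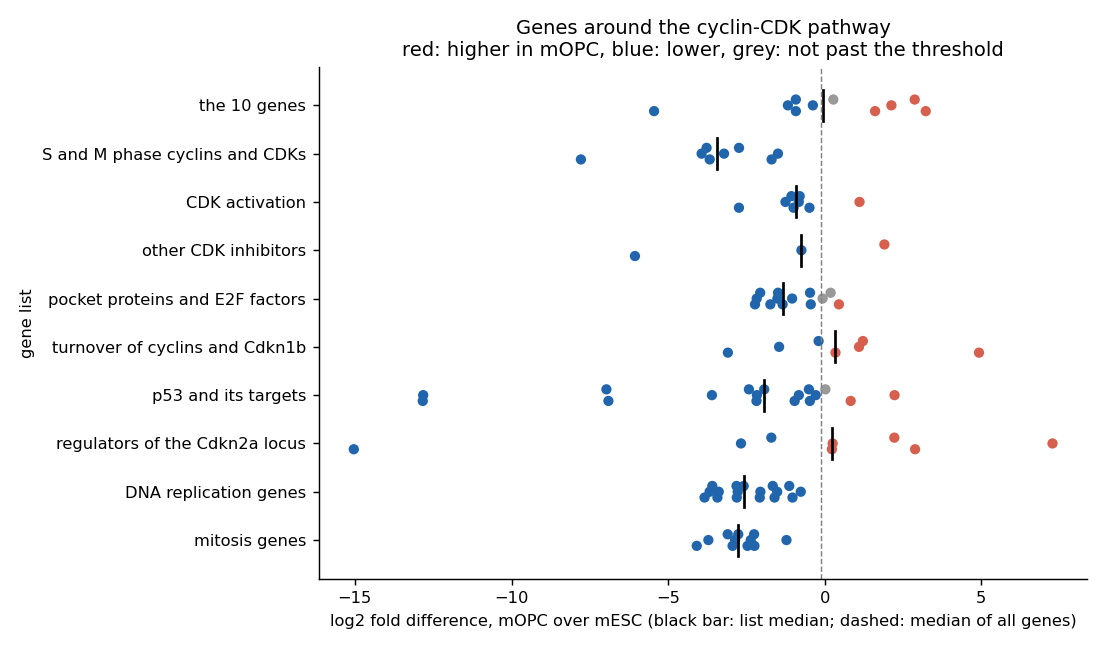
Log2 difference of mOPCs over mESCs for each gene tested of the 10 cell-cycle entry genes and of 9 further lists, red where higher in mOPCs, blue where lower and grey where the threshold was missed, with black bars at list medians and a dashed line at the median of all genes (-0.12). The S and M phase, replication and mitosis lists lie left of 0 throughout, and the 10 entry genes on both sides.

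The genes whose levels over the 6 libraries were closest to those of the most changed members were found by Euclidean distance in log2(CPM + 1). For Ccnd1 these were Slc4a2 (distance 0.28), Scn8a (0.38) and Nrbp1 (0.40). For Ccne1 they were Hmga1b (0.33), whose reads may be shared with a near-identical copy, Hsd17b14 (0.76) and Tex14 (0.76).

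The order of levels among the 10 genes, within 500 bp of annotated 5′ ends, differed between the cell types. In mESCs it ran Cdk4, Ccnd3, Cdkn1a, Ccne1, Cdkn1b, Cdk6, Ccnd1, Cdkn2a, Cdkn2b and Ccnd2, and the library range of Ccnd3 overlapped those of Cdkn1a and Ccne1, the only overlaps of any pair. In mOPCs it ran Ccnd1, Cdk4, Cdkn1b, Ccnd3, Cdkn1a, Cdkn2a, Ccnd2, Cdk6, Cdkn2b and Ccne1, and no ranges overlapped. Within 100 bp Cdkn1b moved from place 3 to place 7 in mOPCs, below Ccnd3, Cdkn1a, Cdkn2a and Ccnd2, and from place 5 to place 7 in mESCs. CAGE tags come from 5′ ends, so levels of different genes were compared without a correction for transcript length. The libraries were amplified by PCR, and the study describes no removal of duplicate CAGE tags, so tags are not counts of RNA molecules. The summed windows also differ in total width between genes. Ccne1 thus stood at place 4 in mESCs and at place 10 in mOPCs, and Ccnd1 at places 7 and 1.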

How the data were processed

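CAGE libraries were made from nuclear RNA with random primers and EcoP15I, 3 per cell type. According to the methods of the study, the authors trimmed reads to tags of 21 to 27 bases, aligned them to mm10 with bowtie and kept unique alignments, whereas the labels name BWA 0.5.9 and CASAVA 1.8. The deposited values are raw tag counts per stranded 5′ position, without normalization. Short unique tags lose genes with near-identical copies, and library totals set the precision of low values (3 tags are 0.0733 to 0.180 CPM).

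Tags within 500 bp of GENCODE vM21 5′ ends were summed per gene and per promoter window with Python 3.11.15. Genes and windows were compared with edgeR 4.0.16 in R 4.3.3 (glmQLFit, TMM, filterByExpr, all deposited tags as library size). On simulated counts for 16270 genes, 200 changes of 2 on the log2 scale were planted between the cell types. Of these 196 were recovered, counted in either direction, and 9 of 205 calls were false. No other gene was changed, and the coefficient of variation between libraries was set to 0.1. In the data 91.2% of the genes tested passed, so these rates cannot be carried over to the real fit. Promoter sequences came from RefSeq (GRCm38.p6), whose table matched 8 of the 10 genes (not Ccnd1 and Ccnd2). Promoter shares were compared by exact permutation tests with scipy 1.17.1. The members, gene lists and tests were chosen with earlier results of these data known. Genes beside the 10 were named by rule: in each list the 2 with the largest change among those past the threshold whose mean reached 10 CPM in mESCs or mOPCs (1 list had 1 such gene), and for the most changed member in each direction the 3 most similar protein-coding genes. Cdc25b, E2f6, Rb1, Rbl2, Cdkn1c, Cdkn2d, Trp53, Sesn1, Cbx7, Bmi1 and Tbx2 fall outside it and were named after their values were seen. Same-numbered libraries of the cell types were not paired. Alternatives were DESeq2 1.42.0, other scalings, no filter, windows of 100 and 1000 bp, tags shared by genes left out, gene bodies, a replicate block, each library left out and, added after the data were seen, the position with the most tags left out.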

Additional observations from a re-analysis of the deposited data

Results flagged for a closer look

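Antisense tags at the exon 1β promoter of Cdkn2a, which are outside the main measurement of sense tags and were given no test, stood out as additional signal. They reached a mean of 69.9 ± 0.46 CPM (SD, n = 3) in mOPCs and 2.27 ± 0.25 CPM in mESCs, a ratio of 30.9, and exceeded the sense tags in each mOPC library. At the Cdkn1b window antisense tags had 11.3 ± 0.65 CPM in mOPCs and 2.07 ± 0.18 in mESCs, below the sense tags in every library. The cause was not tested.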

How the results depend on the processing

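Each of the 10 gene differences was recomputed under 16 alternatives, and 158 of the 160 values kept their direction and their side of the threshold. The exceptions were Cdkn1b with 100 bp windows (-0.12) and Cdkn2b with library totals (0.34). Leaving out each library in turn gave 2.02 to 2.19 for Cdkn2a, 1.51 to 1.70 for Cdkn1b, 3.15 to 3.30 for Ccnd1 and -5.57 to -5.32 for Ccne1, and 0.13 to 0.33 for Cdkn2b, past the threshold in none. The numbers in the labels gave no pairing (correlations of same-numbered libraries 0.003, 0.18 and 0.012), and with a replicate block 7224 genes were higher and 7995 lower, against 7247 and 7991 without it, with no change of call among the 10 genes. Among promoter windows, Cdk6 downstream was 0.056 with library totals and -0.26 (now past the threshold) with 1000 bp windows, and Cdkn1b was -0.18 with 100 bp windows. The small second window of Cdk4, at 0.25 and not past the threshold, was -0.042 with 1000 bp windows and ranged from -0.21 to 1.06 with a library left out (-0.07 and -0.21 without mESC libraries 2 and 1). The Cdkn2b window, at 0.13, was 0.34 and past the threshold with library totals, and ranged from -0.044 (without mESC library 1) to 0.24. With 100 bp windows the promoter share differed by -0.064 points for Ccnd2, where the cell types were no longer apart, and 38.5 for Cdk6, and with 1000 bp windows by -0.82 for Ccnd1, which then was apart. The share of the main Cdkn1b position differed by 29.7 points, against 2.19 points for the main position, 14 bp downstream of the 5′ end, within 100 bp windows. Depth limits exon 1α of Cdkn2a, which rests on 9 to 47 tags per library.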
